A study of Mus musculus with 4 samples.

Results

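The B cells of the mouse pancreas were taken from droplet single-cell RNA counts as 1143 of the 12807 barcodes that passed a cell filter. A barcode had to hold at least 500 UMIs (unique molecular identifiers, each marking 1 captured RNA molecule) over at least 200 genes, with at most 20% of its UMIs from mitochondrial genes. The B cells were then chosen by their counts of marker genes: a barcode needed at least 2 UMIs of Cd79a, at least 2 UMIs of Ms4a1 and Cd79b together, fewer than 10 UMIs of Jchain, 0 UMIs of Cd3e and fewer than 10 UMIs over the 3 C1q genes. Cd79a and Cd79b encode the signalling chains of the B cell receptor, Ms4a1 encodes CD20, Jchain encodes the chain that joins secreted antibodies, Cd3e encodes a chain of the T cell receptor complex, and the C1q genes mark macrophages. The levels of these genes are therefore a description of how the cells were chosen and not a result.

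The pancreata came from wild-type C57BL/6 mice, and each of 4 groups was a single library of live (DAPI-negative) sorted cells. The library C2D was prepared 2 days after caerulein, a cholecystokinin analogue used to provoke acute pancreatitis in rodents. C6W had the same treatment and 6 weeks of recovery, and both are given in the labels as pancreatitis. S6W had saline and 6 weeks, and S2D had saline and 2 days, both given in the labels as inflammation-naïve. How many animals stand behind a library, and their age, are not given in the sources used here. With 1 library per group there is no test between groups anywhere below, all intervals and limits are for counting error only, the intervals at 95%, and a difference between treatments cannot be told apart from a difference between libraries. C6W is compared with S6W, S6W with S2D, and C6W with S2D; each pair of these comparisons shares a library.

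B cells carry a membrane antibody of 2 heavy and 2 light chains that signals through the Cd79 pair, and each cell normally uses a kappa or a lambda light chain. Follicular B cells recirculate between blood and lymphoid tissue and carry both IgM and IgD. B-1 cells are long-lived, carry much IgM and little IgD, are most frequent in the peritoneal and pleural cavities, and secrete natural antibodies and interleukin 10. On activation, B cells induce early transcription factors, raise antigen presentation and costimulation, divide, switch their heavy chain class or become antibody-secreting plasma cells.

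The cells carried the B cell programme beyond the genes of the rule. All 18 B cell markers on a list that left out the rule's genes were measured, among them Bank1, a scaffold protein of B cell receptor signalling, with 52 UMIs in C2D, 1195 in C6W, 500 in S6W and 2734 in S2D. T cells of the same libraries, taken as barcodes with at least 2 Cd3e UMIs and no Cd79a, are given beside the B cells where a background is needed, and plain CPM are UMIs per 1000000 UMIs of the cells named. Ighd, which encodes the IgD heavy chain, a marker not used by the rule, had at least 2 UMIs in 8 C2D cells (47.1%), 116 C6W cells (49.2%), 54 S6W cells (45.4%) and 428 S2D cells (55.5%), while no T cell of any library had 2. The median B cell held 3314 UMIs in C2D, 9484 in C6W, 9248 in S6W and 6766 in S2D, against 6467, 7705, 7190 and 6283 in the T cells of the same libraries. B cells summed to 86640 UMIs in C2D, 2747515 in C6W, 1234194 in S6W and 6934334 in S2D.

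Few barcodes lay near the gate. At exactly the Ms4a1 and Cd79b minimum there were 1 cell in C2D, 2 in C6W, 4 in S6W and 24 in S2D, and 1 UMI below it there were 0, 4, 8 and 13 barcodes. The Jchain limit alone kept out 4, 19, 10 and 84 barcodes, whose median Igkc count was 9410, 18270, 21200 and 8982 UMIs, against 34, 88, 81 and 54 UMIs in the B cells kept. Just inside that limit, with at least 5 Jchain UMIs, were 0, 1, 1 and 3 B cells. The C6W cell among them held 12950 Igkc and 5772 Ighm UMIs, in the range of the barcodes kept out. In S2D the highest Igkc count of a B cell kept was 6166 UMIs. Between 3 and 22 barcode sequences were shared by any pair of libraries, and 0 B cells had one. RNA of secreted pancreatic enzymes, which is free in such suspensions, reached every B cell, with a median of 16 UMIs in C2D, 78 in C6W, 101 in S6W and 158 in S2D, so digestive genes were kept out of the counts of genes that differ. The other marker lists counted were those of duct, fibroblast, endothelial, erythrocyte, T, natural killer, macrophage and neutrophil cells. At least 10 UMIs of any 1 of these lists, digestive genes left aside, were found in 1 of 17, 30 of 236, 12 of 119 and 81 of 771 B cells.

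B cells made up 17 of 4656 filtered barcodes in C2D, 236 of 2773 in C6W, 119 of 2032 in S6W and 771 of 3346 in S2D. As shares these were 0.365% (0.213 to 0.584), 8.51% (7.50 to 9.61), 5.86% (4.88 to 6.97) and 23.0% (21.6 to 24.5), with exact Clopper-Pearson intervals. The C2D share was 63.1-fold below the S2D share, and the C6W share was 1.45-fold the S6W share. The 2 saline libraries were themselves 3.93-fold apart, S6W below S2D, which is a wider gap than that between C6W and S6W.

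A share of all barcodes also moves with the number of other cells caught. Among barcodes with a UMI of Ptprc, the gene of the leukocyte antigen CD45, B cells were 14 of 2903 in C2D (0.482%), 219 of 645 in C6W (34.0%), 103 of 363 in S6W (28.4%) and 704 of 1251 in S2D (56.3%). On this base C6W was 1.20-fold S6W, and S6W was 0.504 of S2D. The C6W interval (30.3 to 37.75) overlapped that of S6W (23.8 to 33.3) on this base, which was not so among all filtered barcodes. The order of the libraries was the same on both bases, and the C2D interval lay below those of the other 3 libraries on both.

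**Figure D1:**
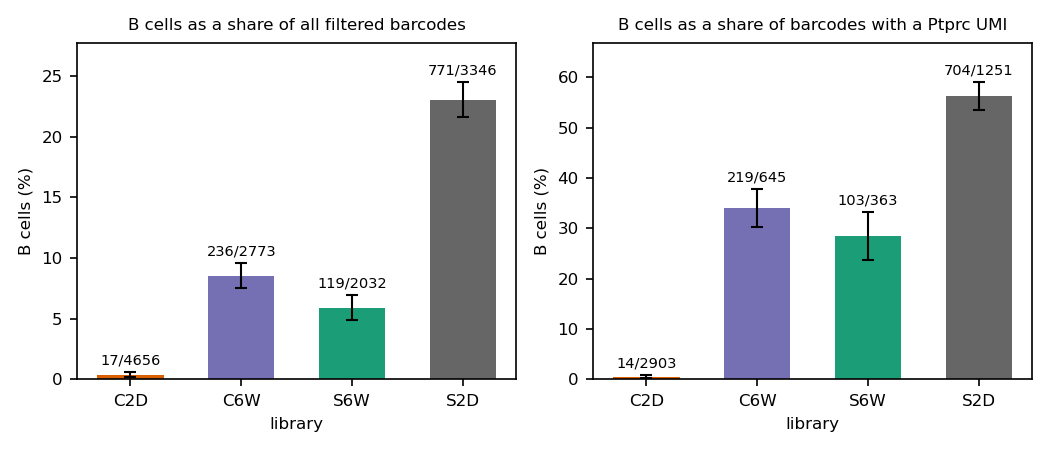
Share of B cells in each library in percent, among filtered barcodes and among barcodes with a Ptprc UMI; bars are shares, whiskers are 95% Clopper-Pearson intervals for counting error, and numbers above the bars are cells over barcodes. C2D holds 0.365% and 0.482%, and S2D the highest shares on both bases, 23.0% and 56.3%.

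The 17 C2D cells are given as counts only. They held between 2465 and 13059 UMIs each, 15 of them had at least 5 Ighm UMIs and 11 had an Ighd UMI. By light chain, 15 were kappa cells and 2 were lambda cells. Cd83, an activation marker that stabilises MHC class II at the surface, had 64 UMIs in 15 of the cells, and Nr4a1, an early gene of B cell receptor signalling, had 28 UMIs. Cd22, an inhibitory co-receptor, had 19 UMIs, and Pax5, the factor that maintains B cell identity, had 14. Ki-67 (Mki67) had 0 UMIs and Jchain 1, and of the other cell types' markers the 12 macrophage genes had 69 UMIs in all, 11 of 12 T cell genes were at 0, and all 5 erythrocyte genes were at 0.

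The antibody genes placed most cells at an unswitched stage. Ighm, the IgM heavy chain (chr12:113418558-113422730 in GRCm38), had a median of 9 UMIs per cell in C2D, 35 in C6W, 29 in S6W and 22 in S2D, and Ighd (chr12:113406604-113416324) a median of 1, 1, 1 and 2. A cell was called switched when its IgG, IgA and IgE genes together held at least 5 UMIs and exceeded Ighm. This held for 0 of 17 C2D, 2 of 236 C6W, 0 of 119 S6W and 13 of 771 S2D cells, where a count of 0, read as up to 3 counts, allows up to 17.6% in C2D and 2.52% in S6W. With every cell thinned to 1000 UMIs, 1 of 236 C6W and 3 of 771 S2D cells (0.389%, against 1.69% of S2D cells unthinned) were switched. The summed level of Ighm over all cells, 7751 scaled CPM in C6W against 4259 in S6W, gave a log2 ratio of 0.86 (0.82 to 0.91). However, 5772 of the 20813 C6W UMIs lay in 1 cell, the one just inside the Jchain limit. Without the top cell of each library the ratio was 0.44. Scaled CPM here are UMIs per 1000000 of a library's B cell total after TMM scaling across the 4 libraries.

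Single cells also carried much of the RNA of the switched classes. Ighg2b, an IgG2b heavy chain, had 168 UMIs in 29 C6W cells, 11 in 1 S6W cell and 139 in 12 S2D cells, with a C6W over S6W log2 ratio of 2.77 (1.89 to 3.79). Ighg2c had 76 UMIs in 6 C6W cells, 0 in S6W and 14 in 3 S2D cells. Igha, the IgA heavy chain, had 41, 9 and 524 UMIs in C6W, S6W and S2D, and 473 of the S2D UMIs came from 1 cell, so that its S6W over S2D log2 ratio of -3.40 became -0.39 without the top cells. Ighg3 had UMIs in 306 S2D B cells but at least 5 in 9 of them, and it stood at 61.0 plain CPM in the S2D T cells; after every cell was thinned to 1000 UMIs, 7.39% of S2D B cells and 8.80% of S2D T cells had one, so in S2D B cells with fewer than 5 Ighg3 UMIs the gene is not told apart from background.

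Kappa cells outnumbered lambda cells in every library. A cell was assigned to the light chain with at least 5 UMIs that exceeded the other, using Igkc (chr6:70726435-70726966) for kappa and the sum of Iglc1, Iglc2 and Iglc3 on chromosome 16 for lambda, because these 3 genes are near-identical and the split of reads among them is uncertain. Lambda cells were 2 of 17 in C2D (11.8%), 29 of 236 in C6W (12.3%, 8.39 to 17.2), 9 of 119 in S6W (7.56%, 3.52 to 13.9) and 115 of 771 in S2D (14.9%, 12.5 to 17.6). The C6W interval overlapped both saline intervals. Both chains had at least 5 UMIs, less than 4-fold apart, in 5 C2D, 47 C6W, 27 S6W and 224 S2D cells. These cells were still assigned by the higher chain.

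Lambda RNA was present in most kappa cells as well. At least 1 lambda UMI was found in 13 of 15 C2D, 203 of 206 C6W (98.5%), 107 of 110 S6W (97.3%) and 643 of 653 S2D kappa cells (98.5%), with medians of 6, 14.5, 13 and 11 UMIs. In T cells of the same libraries, no lambda constant gene exceeded 5.26 plain CPM. With every cell thinned to 1000 UMIs, Iglc2 was seen in 58.8% of C2D, 63.1% of C6W, 58.0% of S6W and 58.6% of S2D B cells, and in 0%, 0%, 0% and 0.8% of T cells, so the lambda UMIs of kappa cells were above the background measured in T cells. In the other direction, Igkc UMIs were found in 14 of 29 C6W lambda cells (48.3%) and 105 of 115 S2D lambda cells (91.3%), while Igkc stood at 53.3 plain CPM in C6W T cells and 200 plain CPM in S2D T cells.

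Clustering of the 1143 cells, with antibody genes and markers of other cell types left out, gave 2 large classes and 2 small sets. The first class, 590 cells, was led by Satb1, Ccl4, Egr3, Fcer2a and Vpreb3 and is called follicular-like. The second class, 511 cells, was led by S100a4, S100a6, Zcwpw1, Fgl2, Ass1, Tyrobp, Cd274, Vim, Adora2a and Ctla4 and is called B-1-like, although 7 of 12 memory genes were also at least 1.5-fold higher in it in C6W, S6W and S2D alike. The other sets are unnamed. One had 31 cells with division and fibroblast genes, 9 of them called doublets, and the other had 11 cells with duct genes, 10 of them called doublets. The names come from rebuilt clusters and not from a deposited annotation.

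In all 3 well-filled libraries the 2 classes differed in genes that took part in the clustering or its naming, and these values describe the clusters. Ighd, an antibody gene, was left out of the clustering but is on the follicular list. It stood at 617, 466.5 and 681 plain CPM in follicular-like cells of C6W, S6W and S2D, against 89.7, 76.0 and 96.1 in B-1-like cells. Fcer2a, the low-affinity IgE receptor CD23 of follicular cells, stood at 348, 285 and 374 in follicular-like cells against 24.1, 40.4 and 22.1 in B-1-like cells. Zbtb32, a transcription factor of B-1 and memory cells, stood at 1.75, 8.91 and 0.805 in follicular-like cells against 77.0, 60.6 and 81.4 in B-1-like cells, and the inhibitory receptor gene Ctla4 at 1.75, 29.7 and 0.805 against 127, 124 and 70.6. Of the lists, 5 of 12 follicular genes and 8 of 19 B cell transcription factors were at least 1.5-fold higher in the follicular-like class in all 3 libraries, and 9 of 10 B-1 genes in the B-1-like class. Of 11 marginal zone genes, 5 (S1pr3, Mzb1, Cd9, Plac8 and Tcf4) were higher in the B-1-like class and 1 (Cr2) in the follicular-like class. The share of all genes past the same cut was not computed, so these counts, and that of the memory genes, have no background.

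The same lists show where each class sat among its activation genes. Of 21 activation genes, 9 were at least 1.5-fold higher in follicular-like cells in the 3 libraries (Cd69, Nr4a1, Nr4a3, Egr1, Egr2, Egr3, Myc, Nfkbid and Dusp2), and 3 were higher in B-1-like cells (Cd44, Batf and Ebi3). Here too the share of all genes past this cut was not computed. Nr4a1 stood at 677, 1771 and 594 plain CPM in follicular-like cells of C6W, S6W and S2D, and at 227, 334 and 167 in B-1-like cells. The median UMI count was 4986 in follicular-like and 12110 in B-1-like cells. The follicular-like class held 13 cells of C2D, 90 of C6W, 56 of S6W and 431 of S2D, and the B-1-like class held 4, 134, 61 and 312. These counts are not compared between libraries, because genes that define the classes differ between the libraries as well.

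**Figure D2:**
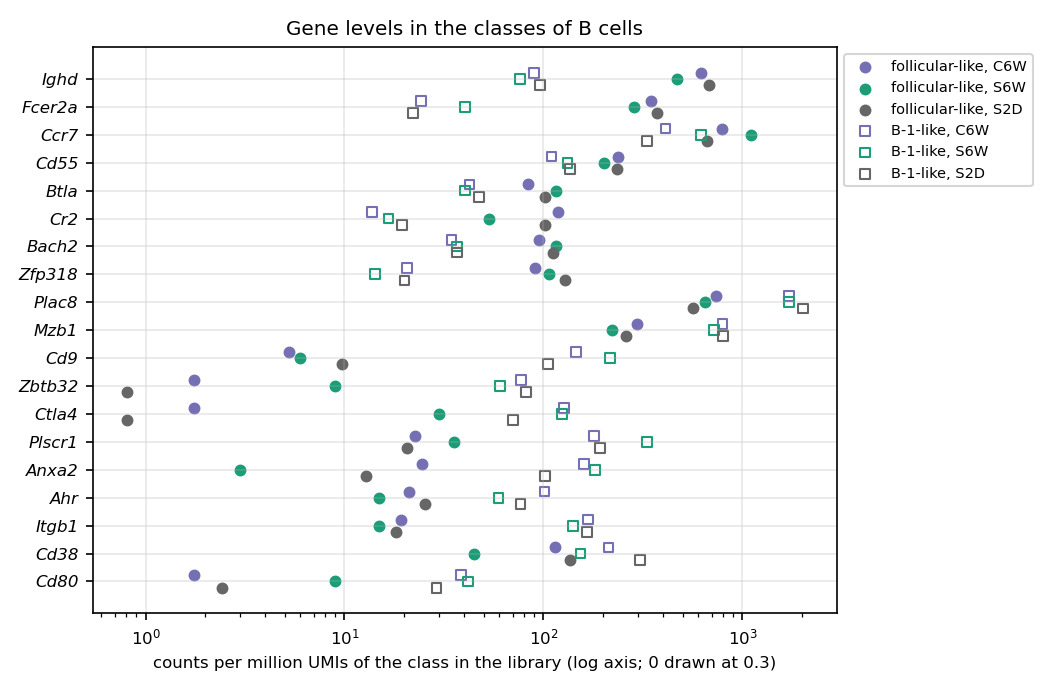
Levels of 19 genes, in plain CPM on a log axis, in follicular-like (filled circles) and B-1-like (open squares) B cells of C6W, S6W and S2D. Ighd and Fcer2a lie higher in the follicular-like cells of all 3 libraries, and Zbtb32 and Ctla4 higher in the B-1-like cells; these genes took part in the clustering or its naming.

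The light chains and the switched classes took no part in the clustering. Lambda cells were 39 of 431 follicular-like cells in S2D (9.05%, 6.51 to 12.2) and 71 of 312 B-1-like cells (22.8%, 18.2 to 27.8). In C6W they were 7 of 90 follicular-like (7.78%) and 21 of 134 B-1-like cells (15.7%, 9.97 to 23.0), and in S6W 5 of 56 (8.93%) and 4 of 61 (6.56%, 1.82 to 16.0), so the S6W values did not share the direction of the other 2 libraries. Both chains, at least 5 UMIs each and less than 4-fold apart, were held by 124 follicular-like (28.8%) and 94 B-1-like S2D cells (30.1%). Switched cells were 12 of 312 S2D, 2 of 134 C6W and 0 of 61 S6W B-1-like cells, and 0 follicular-like cells of any library. In S2D the B-1-like cells held a median of 11808 UMIs and the follicular-like cells 4665. The part of this depth in the switched counts was not tested. Cells of 1 library share their source, so no test was made.

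Il10, the gene of interleukin 10 (chr1:131019845-131024974), had 0 UMIs in C2D, 70 in 18 C6W cells, 26 in 13 S6W cells and 22 in 12 S2D cells. Its total was under the 100 UMIs required for a ratio between C6W and S6W. In B-1-like cells it stood at 39.1 plain CPM in C6W, 30.9 in S6W and 4.48 in S2D, and it was 0 in the follicular-like cells of these libraries. The T cells of C6W, S6W and S2D held 13.6, 25.9 and 44.1 plain CPM. The B-1-like and T cell levels are both given without intervals, so no order of the libraries is read from either. As point values, both 6-week libraries, after caerulein and after saline, lay above S2D in B-1-like cells and below it in T cells.

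For genes across all B cells, C6W was compared with S6W over the 3982 genes with at least 100 UMIs in both libraries together, and a gene was counted as higher or lower at a ratio of 2-fold or more. In C6W, 67 genes (1.68%) were higher and 49 (1.23%) were lower than in S6W. Of the activation genes, 3 of 17 measured members (Nr4a1, Nfkbid and Egr3) fell and 0 rose, with a list median log2 ratio of -0.56 against 0.01 over all genes compared. Of the cell cycle genes, 6 of 9 measured were higher and 0 lower (median 1.97). The 2 measured genes of the germinal centre list, Ezh2 and Stmn1, which is also on the cell cycle list, both rose (median 2.86). Of the plasma cell list, 3 of 7 measured genes rose and 0 fell (median 0.79).

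Among the activation genes, Nr4a1 (chr15:101254269-101274795) fell to 318 scaled CPM in C6W, against 758 in S6W, a log2 ratio of -1.25 (-1.39 to -1.12) from 854 and 906 UMIs. Nfkbid (chr7:30421732-30428746), a nuclear inhibitor-like regulator of NF-kappaB, stood at 141 scaled CPM in C6W and 342 in S6W (log2 ratio -1.28, -1.48 to -1.07). Egr3, a zinc finger factor induced by receptor signalling, stood at 55.5 in C6W and 141 in S6W (-1.34, -1.67 to -1.01). Nfkbia, the NF-kappaB inhibitor, was just short of 2-fold, at 285 in C6W and 562 in S6W (-0.98). Cd83 stood at 914 in C6W and 1401 in S6W (-0.62), with a median of 7 UMIs per C6W cell and 12 per S6W cell. Odc1, the rate-limiting enzyme of polyamine synthesis and not on the list, fell to 400 in C6W against 1074 in S6W (-1.42, -1.54 to -1.30).

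For most of these genes S6W stood apart from both C6W and S2D. S2D B cells held 342.5 scaled CPM of Nr4a1 and 158 of Nfkbid, close to C6W: the C6W over S2D log2 ratios were -0.11 and -0.16. Egr3 was an exception, at 162 scaled CPM in S2D, so that it was low in C6W against both saline libraries (-1.55 against S2D, -1.80 to -1.30). In T cells, on CPM scaled over the T cells of the libraries, Nr4a1 was 332 in C6W and 585 in S6W (-0.81, -1.07 to -0.56), Nfkbia 641 and 1328 (-1.05), and Odc1 527 and 1088 (-1.05), while Nfkbid was 53.7 and 69.5 (-0.37, -1.09 to 0.38). Nr4a1 and Egr1 also belong to a list of 24 genes that respond to tissue digestion, of which 1 fell (Nr4a1) and 1 rose (Hspa1b, a heat shock gene, 1.11) in C6W, with a list median of -0.12 in B cells and 0.03 in T cells. The part of these digestion genes in the activation values was not tested.

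Among the antigen presentation genes measured, 1 passed 2-fold between C6W and S6W. Of 15 measured MHC class II and costimulation genes 1 was higher in C6W and 0 were lower (median -0.14). That gene was Ciita (chr16:10480059-10528418), the transactivator of MHC class II genes, at 60.7 scaled CPM in C6W and 26.8 in S6W (1.18, 0.63 to 1.77, from 163 and 32 UMIs). Of the genes it is known to activate, Cd74, the invariant chain, was 17120 scaled CPM in C6W and 19820 in S6W (-0.21), and H2-Aa was 4760 and 5639 (-0.24). S2D held 80.3 scaled CPM of Ciita, so S6W was the lowest of the 3 libraries for this gene. The B cell transcription factors (19 measured, median -0.10), the receptor signalling genes (24 of 26, median 0.09), the follicular genes (12, median -0.25), the B-1 genes (7 of 10, median -0.11), the homing receptors (16 of 21, median -0.13) and the MHC class I presentation genes (11 of 12, median 0.21) each had 0 members past 2-fold in either direction. The largest MHC class I ratio was that of Psmb9, at 178 scaled CPM in C6W and 99.6 in S6W (0.84, 0.55 to 1.14).

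Of the plasma cell list, Txndc5, a protein disulfide isomerase of the endoplasmic reticulum, stood at 149 scaled CPM in C6W and 66.1 in S6W (1.17, 0.82 to 1.54). Creld2 and Edem1, which act in protein folding and disposal there, had log2 ratios of 1.12 and 1.03, and Xbp1, a factor of the secretory programme, 0.79. Without the top cell of each library Creld2 and Edem1 no longer reached 2-fold, at 0.89 and 0.82, and Xbp1 stood at 0.58. Of 9 measured interferon response genes 0 were past 2-fold (median 0.34), with Ifi27l2a at 0.74 (378 scaled CPM in C6W, 227 in S6W) and Ifi203 at 0.63. The 7 interferon genes measured in T cells had a median of 0.62.

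The division genes were carried by a few cells. Mki67 had 99 UMIs in 11 C6W cells and 1 UMI in S6W (5.46, 2.95 to 10.78), Rrm2, a subunit of the enzyme that makes deoxynucleotides, 106 UMIs in 6 C6W cells and 1 UMI in S6W (5.56), and Top2a, the topoisomerase of dividing cells, 189 and 8 UMIs (3.39). Counting cells with at least 5 UMIs over 10 of the division genes, a cut chosen after the values were seen, gave 0 of 17 cells in C2D, 7 of 236 in C6W (2.97%, 1.20 to 6.02), 0 of 119 in S6W, where a count of 0, read as up to 3 counts, allows up to 2.52%, and 16 of 771 in S2D (2.08%, 1.19 to 3.35). The C6W and S2D intervals overlapped, and the limit for S6W lay inside both. Of these cells, 2 in C6W and 5 in S2D also carried at least 10 UMIs of another cell type's markers, and without all such marker-carrying cells the list median of C6W over S6W was 0.87.

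**Figure D3:**
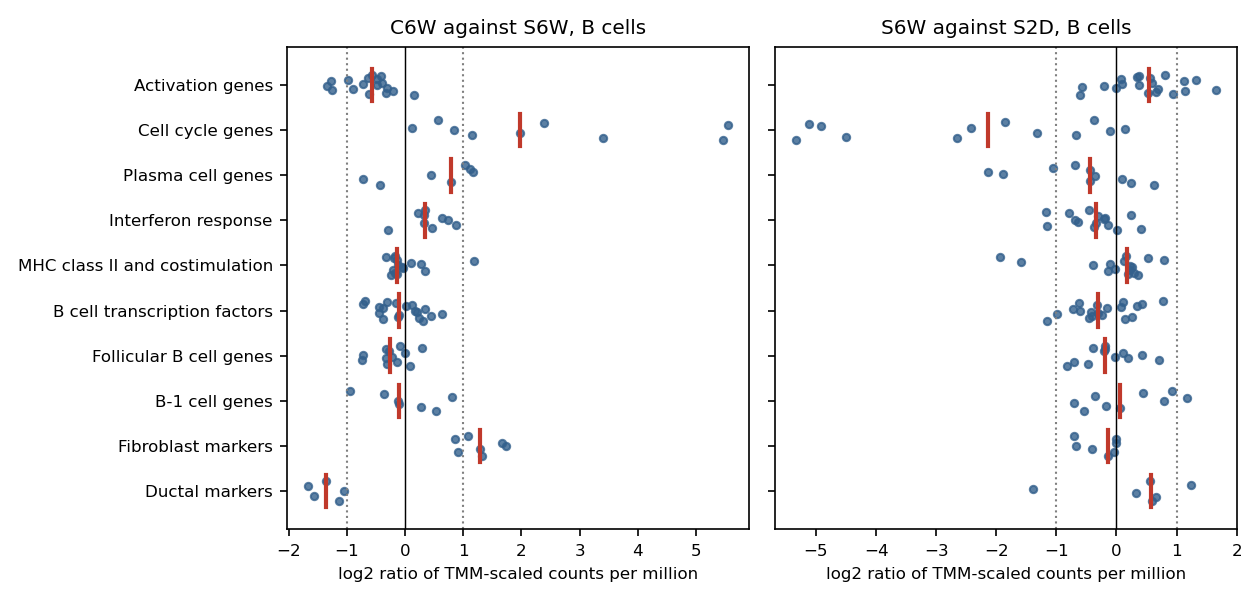
Log2 ratios of the genes of 10 lists in B cells, for C6W over S6W on the left and S6W over S2D on the right; each point is a gene with at least 100 UMIs over both libraries, the red bar is the list median, and dotted lines mark 2-fold. Activation genes lie mostly below 0 on the left (median -0.56) and above 0 on the right (0.54), and cell cycle genes the other way round (1.97 and -2.14).

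Markers of other cell types stood among the genes with the highest and lowest ratios. Fibroblast markers were higher in C6W for 5 of 7 measured genes (median 1.29), with 3990 UMIs in C6W against 733 in S6W, and 6 C6W cells and 1 S6W cell held at least 10 of them; without called doublets the median over the measured fibroblast genes was -0.56. All 5 measured duct genes were lower (median -1.37), and of the 1028 S6W duct UMIs 883 lay in 1 cell. Mgp, Ccl2, Ptn, Col15a1 and Bgn stood among the 10 highest ratios, and Ccl21a, Has1, Spp1, Krt18 and Clu among the 10 lowest. Of these, Ccl21a had all 235 of its UMIs in 1 S6W cell, and 1 S6W cell held 98.7% of the Spp1 UMIs. In S6W, 1 cell held 13031 of 13147 erythrocyte UMIs. The part of these cells in other results was not tested beyond leaving them out: without the marker-carrying cells, 24 genes were higher and 32 lower in C6W, Nr4a1 stood at -1.28, Nfkbid at -1.07, Egr3 at -1.17 and Ciita at 1.07.

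Within the follicular-like class, 11 of 1005 genes (1.09%) were higher and 27 (2.69%) lower in C6W than in S6W, from 90 and 56 cells. Of 13 measured activation genes 5 fell and 0 rose (median -0.92, against 0.06 over all genes compared). Nr4a1 stood at 712 scaled CPM in C6W and 1883 in S6W (-1.40, -1.59 to -1.22), Nfkbid at 287 and 831 (-1.53, -1.83 to -1.24), and Egr3 at 151 and 430 (-1.51). Sec24a, a coat protein of secretory vesicles, was also lower (-1.69). Higher in C6W were Socs3, a feedback inhibitor of cytokine signalling, at 178 and 34.8 scaled CPM (2.36, 1.46 to 3.41), Ly6a, which encodes Sca-1, at 416 and 145 (1.52, 1.05 to 2.01), the metabolic regulator gene Txnip (1.38) and the B cell factor Pou2f2 (1.03). CPM in these class comparisons are scaled within the class.

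Within the B-1-like class, 16 of 2686 genes (0.596%) were higher and 14 (0.521%) lower in C6W, from 134 and 61 cells. Of 15 measured activation genes 0 passed 2-fold in either direction (median -0.21, against 0.02 over all genes compared). Nr4a1 stood at 244 scaled CPM in C6W and 346 in S6W (-0.50, -0.73 to -0.28), and Nfkbid at 130 and 151.5 (-0.22, -0.54 to 0.12). Rgs1, a brake on chemokine receptor signalling, stood at 177 scaled CPM in C6W and 48.0 in S6W (1.88, 1.39 to 2.40), Mbd2, which binds methylated DNA, at 66.7 and 18.5 (1.85, 1.07 to 2.74), and Ciita at 63.0 and 18.5 (1.77, 0.98 to 2.66). Odc1 fell to 526 in C6W against 1450 in S6W (-1.46, -1.59 to -1.33), and the lamin gene Lmna to 85.2 against 214 (-1.33). Zcwpw1 and Fgl2, which lead the class, were also lower in C6W (-1.25 and -1.28), which is why the sizes of the classes are not compared. The difference between the classes in the activation genes was not tested.

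The 2 saline libraries also differed from each other. Of 6087 genes compared, 59 (0.969%) were higher and 238 (3.91%) lower in S6W than in S2D. Digestive genes, kept out of that count, were lower for all 31 measured (median -1.98). In S2D, 1 cell held 130616 of the 300702 digestive UMIs. The median per B cell was 101 UMIs in S6W and 158 in S2D. Of 20 measured activation genes 4 rose and 0 fell (median 0.54, against -0.04 over all genes compared). These were Nfkbia at 562 scaled CPM in S6W and 223 in S2D (1.33, 1.20 to 1.46), Nr4a1 at 758 and 342.5 (1.15, 1.03 to 1.26), Nfkbid at 342 and 158 (1.12, 0.95 to 1.28), and Nr4a2 at 56.1 and 17.8 (1.65), of whose S6W UMIs 46.3% lay in 1 cell. Pim1, a survival kinase, stood at 902 and 448 (1.01), Odc1 at 1074 and 286 (1.91), and Ctla4 at 96.2 and 42.6 (1.17).

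Among B cell markers, Cd22 (chr7:30865402-30880342) fell to 76.2 scaled CPM in S6W, against 195 in S2D (-1.36, -1.68 to -1.05), and Pax5 (chr4:44524757-44710487) to 116 against 261 (-1.16, -1.42 to -0.91); these were the 2 of 18 B cell markers outside the rule that passed 2-fold. Ciita stood at 26.8 in S6W and 80.3 in S2D (-1.58, -2.15 to -1.07), and Icosl, a costimulatory ligand for T cells, had 9 UMIs in S6W and 189 in S2D (-1.93). Of 18 measured homing receptors 3 fell (median -0.27): Cxcr4, the receptor for CXCL12, at 132 and 285 (-1.11, -1.35 to -0.87), S1pr4 (-1.20) and Gpr174 (-1.17). Of 15 measured interferon genes 2 fell, among them Zbp1, a sensor of nucleic acids (-1.17). Cd74 (0.22) and H2-Aa (0.36) stayed under 2-fold here too, and 8 of 12 measured cell cycle genes were lower (median -2.14), and 0 S6W cells passed the division cut.

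T cells of the same libraries shared some of these differences and not others. In S6W over S2D, T cells had Nr4a1 at 585 and 349 CPM scaled over the T cells (0.74), Nfkbia at 1328 and 823 (0.69), Pim1 at 940.5 and 436 (1.11) and Odc1 at 1088 and 556 (0.97), while Nfkbid was 69.5 and 67.7 (0.04) and Cxcr4 203 and 156 (0.38, -0.05 to 0.79), in the direction opposite to B cells. The median of 12 measured activation genes in T cells was 0.44. Cd22, Pax5 and Ciita were at most 5.5 plain CPM in T cells of any library, so they give no such comparison. The part of a difference common to lymphocytes of a library in the B cell values was not tested.

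**Figure D4:**
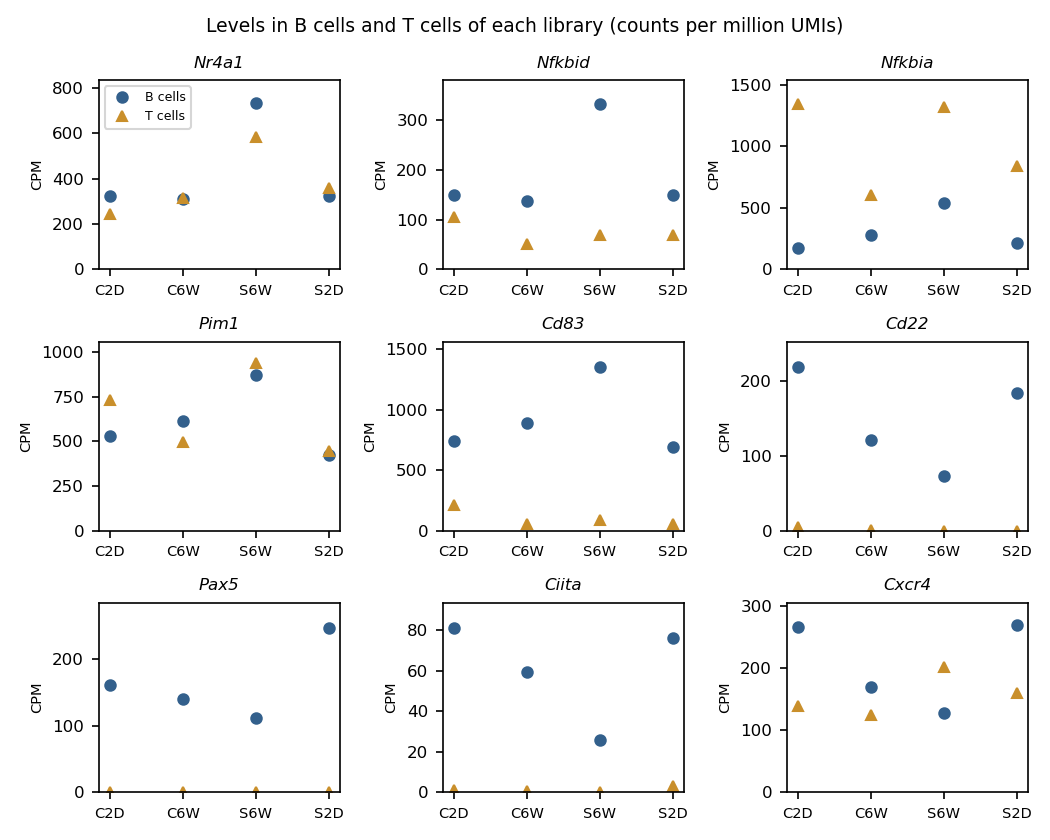
Levels of 9 genes, in plain CPM, in B cells (circles) and T cells (triangles) of C2D, C6W, S6W and S2D. Nr4a1 and Nfkbia are higher in S6W than in C6W and S2D in both cell types, Nfkbid is highest in S6W among the B cells and lies near 70 plain CPM in S6W and S2D T cells, and Cd22, Pax5 and Ciita are near 0 in T cells; C2D B cells rest on 17 cells.

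Set against S2D in place of S6W, C6W B cells had 57 of 6615 genes (0.862%) at least 2-fold higher and 96 (1.45%) lower. The activation genes had a median of -0.09, with 0 of 20 higher and 1 lower (Egr3). Cd22 stood at 124 scaled CPM in C6W and 195 in S2D (-0.65, -0.83 to -0.48), Pax5 at 144 and 261 (-0.85, -1.02 to -0.69), and Cxcr4 at 174 and 285 (-0.71), all between the 2 saline libraries. Genes that were higher in C6W than in S2D included Ctla4 at 88.3 and 42.6 (1.05, 0.79 to 1.30), the ecto-nucleotidase gene Nt5e, which encodes CD73, with 121 and 131 UMIs (1.18, 0.81 to 1.54), and the interferon gene Isg15 at 22.7 and 9.44 (1.27). Bcl6, the germinal centre factor, was lower at 12.7 and 26.4 (-1.06), and Vav2, an exchange factor of receptor signalling, at 18.2 and 38.4 (-1.07). Over all B cells, Ctla4 was thus higher in both 6-week libraries than in S2D, and differed between C6W and S6W by a log2 ratio of -0.12 (-0.45 to 0.21). In B-1-like cells alone, Ctla4 stood at 127, 124 and 70.6 plain CPM in C6W, S6W and S2D. Nt5e stood at 54.6, 34.5 and 30.0 there. The part of the class mix in the ratios over all B cells was not tested.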

How the data were processed

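Single-cell 3' RNA libraries of 4 groups, 1 library each, were used. Per the submitters' processing notes the authors ran Cell Ranger 3.0.2 and FastQC on mm10, and the deposited matrices hold raw UMI counts of 31053 genes per barcode, with 5433 barcodes in C2D, 4195 in C6W, 2623 in S6W and 5316 in S2D. The filtered barcodes had median depths of 14060, 10560, 10350 and 8339 UMIs.

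From these counts, barcodes were filtered and gated as stated in the results, UMIs were summed over the B cells of each library, and totals were scaled by TMM (edgeR 4.0.16 in R 4.3.3). Log2 ratios have exact conditional binomial intervals, levels exact Poisson intervals and shares Clopper-Pearson intervals (scipy 1.17.1), all at 95% and for counting error only. A gene needed 100 UMIs over both libraries and was called at 2-fold. A gene at 0 in 1 library was set to 3 counts there, which gives a bound. T cells had at least 2 Cd3e UMIs and 0 Cd79a UMIs. Doublets were marked with Scrublet in scanpy 1.11.5 and kept, and left out as an alternative. Over all filtered barcodes it marked 19, 32, 15 and 38 in C2D, C6W, S6W and S2D, and among B cells 0, 7, 1 and 18. Clusters were made with Leiden at resolution 0.3 on 1000 genes, 20 components and 15 neighbours, after an earlier grouping that kept the markers of other cell types had split off small sets led by them; at resolutions of 0.5 and 0.8, 96.2% and 95.8% of the cells in the 2 large classes were in a cluster led by their own class. The ratio step was tested on simulated counts. Coordinates are those of the GENCODE annotation of GRCm38.

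Any member of 34 gene lists could be named, with the 10 highest and 10 lowest ratios of each comparison and in each list as many as 4 genes of largest absolute ratio; mitochondrial, ribosomal, haemoglobin, sex-linked, unnamed and digestive genes were kept out of the highest and lowest. Of the listed symbols, 4 were not matched. The members and the lists were chosen with earlier results of these data known. The T cell values, the within-class comparisons, the ratios without top cells, the division cut and Il10 were added after values were seen. Alternatives changed the scaling (DESeq2 1.42.0 size factors, plain CPM, totals without digestive and antibody genes), the UMI minimum, depth, cell filter and gate. Some results are not reported here.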

Additional observations from a re-analysis of the deposited data

Results flagged for a closer look

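The share of B cells among filtered barcodes moved in opposite directions after caerulein at the 2 recovery times. It was 0.0159 of the saline share at 2 days (C2D over S2D, 17 of 4656 against 771 of 3346 barcodes) and 1.45 times the saline share at 6 weeks (C6W over S6W, 236 of 2773 against 119 of 2032 barcodes). With 1 library per group the difference between the 2 ratios was not tested, and the 2 saline libraries that serve as controls differed from each other by 3.93-fold. Among barcodes with a Ptprc UMI, the counting intervals of C6W (30.3 to 37.75%) and S6W (23.8 to 33.3%) overlapped, so the rise at 6 weeks is not separated from counting error on that base.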

How the results depend on the processing

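No paired analysis was possible because each group is 1 library and no test was made. Each comparison was repeated with other scalings, UMI minimums, depths, cell filters and gates, and without called doublets; leaving out cells with at least 10 UMIs of another cell type's markers was added after the data were seen. Among Ptprc barcodes the B cell share ratio, C2D over S2D, was 0.00857, that of C6W over S6W was 1.20 and that of S6W over S2D was 0.504, and with barcodes thinned to 1000 UMIs the last 2 were 1.77 and 0.200. The shares of all filtered barcodes were lower after thinning, at 0.283% in C2D, 4.22% in C6W, 2.39% in S6W and 11.95% in S2D. Counts of higher and lower genes for C6W over S6W, 67 and 49 as reported, were 181 and 93 at a minimum of 50 UMIs, 8 and 16 at 400, 3 and 3 after thinning, and 24 and 32 without marker-carrying cells, with 43 higher without doublets. For S6W over S2D, 59 and 238 as reported, they were 123 and 481 at 50, 19 and 30 at 400, and 8 and 53 after thinning. For C6W over S2D, 57 and 96 as reported, they were 110 and 190, 6 and 14, and 2 and 17, with 25 higher without doublets and 21 without marker-carrying cells. More or fewer genes are compared under each minimum by construction. Thinned S2D cells were 12.2% lambda. Directions reversed for C6W over S6W without doublets in Dcn (-0.56) and so in the fibroblast median (-0.56), and without marker-carrying cells in Spp1 (1.94), Clu (0.64) and Krt8 (0.64). For S6W over S2D they reversed after thinning in Tagln (0.19), Ezh2 (0.77), Ier3 (-0.16), Nlrc5 (0.28) and Spp1 (-0.20), and without marker-carrying cells in Has1 (-1.28), Nbl1 (-1.54), Ier3 (-0.28) and Spp1 (-1.92). For C6W over S2D they reversed in Thbs1 (-0.26) and Dcn (-0.15) without doublets and in Thbs1 (-0.36) without marker-carrying cells. The cause was not tested. Among alternatives for single named genes, 1009 of C6W over S6W, 1018 of S6W over S2D and 1016 of C6W over S2D kept direction within their counting intervals, 89, 84 and 107 moved further, and 4, 9 and 3 reversed. The 119 S6W cells limit the precision of both comparisons that use them.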
